A study of Mus musculus with 8 samples.

Results

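The mitochondrial respiratory chain and its ATP synthase were followed in cultured mouse hepatocytes through the nuclear genes that encode their subunits. Members were chosen by name alone: every probe set whose single platform gene symbol begins with Ndufa, Ndufb, Ndufc, Ndufs, Ndufv, Uqcr, Cox4i, Cox5, Cox6, Cox7, Cox8 or Atp5, or is Sdha, Sdhb, Sdhc, Sdhd or Cyc1, without the assembly factors whose symbols begin with Ndufaf. This gave 83 genes, represented by 170 of the 45037 probe sets that are not controls, among 18194 genes with a single symbol. Each gene was read from its brightest probe set. By symbol, 36 genes were assigned to complex I, 4 to complex II, 9 to complex III, 17 to complex IV and 17 to complex V, the ATP synthase. Of these, 77 passed the filter on dim probe sets and were tested (35, 4, 9, 12 and 17).

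RNA came from primary hepatocytes of wild-type (WT) mice and of mice without transglutaminase 2 (KO), an enzyme that crosslinks proteins, both on the strain background labelled C57BL6/129SVJ. Each genotype's cells spent 15 h in culture at 0 or 100 mM ethanol, with 2 arrays, A and B, in each of the 4 groups. The labels do not describe how the gene was deleted, the age or sex of the animals, whether animals were pooled, or whether A and B came from separate animals or cultures, so a p-value here reflects the scatter of these samples alone, and that scatter may be technical. The treatment text of both ethanol B arrays describes an untreated incubation, whereas their titles and source names give 100 mM, and the titles were followed.

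Electrons from NADH enter the chain at complex I and those from succinate at complex II, pass by ubiquinone to complex III and by cytochrome c to complex IV, where oxygen is reduced. Complexes I, III and IV pump protons across the inner mitochondrial membrane, and the ATP synthase uses the gradient to make ATP. In hepatocytes this chain also reoxidises the NADH formed when alcohol is oxidised to acetaldehyde and acetate. A few subunits of every complex except complex II are encoded in mitochondrial DNA, and all others are nuclear genes whose promoters commonly carry sites for NRF-1 and GABP.

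Of the 6 probe sets named Tgm2, the targeted gene, the 5 brighter ones read 4863 to 16836 on the WT arrays and 69.1 to 762 on the KO arrays. Intensities here and below are linear values after quantile normalisation. Before it, the 2% trimmed mean was 228 to 307 on the WT arrays and 113 to 117 on 3 of the KO arrays, but 341 on the B array of ethanol-treated KO cells. The A arrays of every group except untreated KO had a spike-in ratio, bioC over bioB, under 2, and on the other arrays it was over 2. As a sign of RNA quality, 3′ signal over 5′ signal ran from 0.771 to 0.977 for the Gapdh control and from 1.15 to 1.62 for the beta-actin control over the 8 arrays, and it spread more widely for the pyruvate carboxylase control. On the arrays of WT cells it read 10.0 and 16.8 without ethanol against 26.7 and 44.5 with it. The KO arrays read 10.6 and 8.69 without ethanol against 4.91 and 5.45 with it. Hepatocyte markers were high on every array, with 8 measured markers summing to 61490 to 66641, but in untreated KO 4 of the 8 were lower and 3 higher than in WT, and Hnf4a read 1146 to 1651 in WT and 430 to 820 in KO. The summed intensity of 10 macrophage markers was 1237 to 1425 in WT and 1845 to 2760 in KO, and that of 4 cholangiocyte markers was 312 to 460 in WT and 768 to 1118 in KO. Single genes carried these gaps: Cd68 read 411 to 570 in WT and 1236 to 1859 in KO, and Sox9 read 232 to 323 in WT and 686 to 1049 in KO. Of the 10 macrophage markers, 6 differed by less than 0 in untreated KO, with a median of -0.32, and 3 passed the test as lower and 1 as higher. Only 2 of the 4 cholangiocyte markers were tested. In untreated KO they differed by 1.66, which was called, and by -0.87, which was not. With ethanol both lay above 0, at 0.89 and 1.45, and 1 was called. The widest gap was in 8 brown fat or muscle markers, which summed to 441 to 455 in WT and 1899 to 2045 in KO. There Cidea, a lipid droplet protein, read 78.2 to 181 in WT and 1757 to 1863 in KO (3.92 untreated, limma adjusted p = 1.2e-06), whereas Ucp1, the defining brown fat gene, stayed at 1.40 to 2.89 on all arrays. Only 4 of these 8 markers were tested, and 3 of the 4 differed by less than 0 in KO, both without and with ethanol. Their median in untreated KO was -0.61, and 1 passed the test as lower and 1 as higher. The part of these differences between arrays in the subunit values was not tested, and in bulk RNA fewer cells of a type and less RNA per cell cannot be told apart.

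In untreated cells, subunit transcripts were mostly lower in KO than in WT. Of 77 tested members, 33 were lower and 4 higher at a limma adjusted p under 0.05, where 16.9% of all 19814 tested probe sets were lower and 15.3% higher. The median log2 difference, on the scale of log2(intensity + 16), was -0.20 over the members and -0.04 over all tested probe sets. Both untreated KO arrays lay below both WT arrays for 51 of the 77 members and for 37.4% of all tested probe sets. Complex I held most of the lower members, 19 of its 35, with a median of -0.33. The count was 4 of 9 in complex III, 5 of 12 in complex IV and 5 of 17 in the ATP synthase, with medians of -0.18, -0.19 and -0.16. In complex II, none of the 4 subunits passed the test, and the lowest adjusted p was 0.096.

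**Figure D1:**
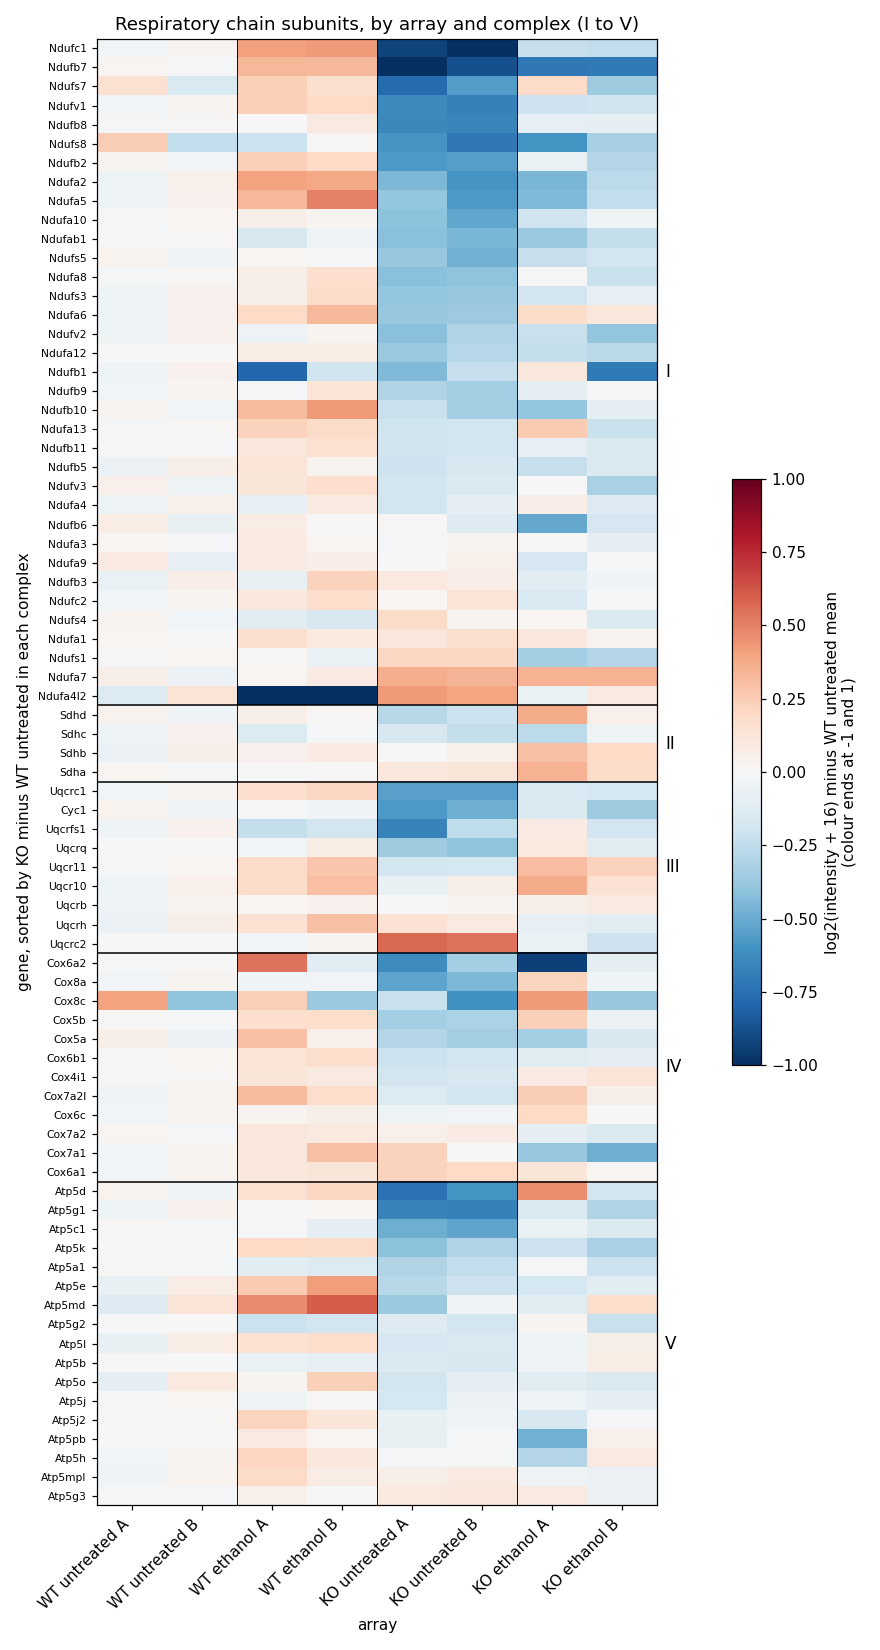
Each row is one of the 77 tested subunit genes and each column one of the 8 arrays; colour gives log2(intensity + 16) minus the mean of the untreated WT arrays, ending at -1 and 1. In untreated KO the difference is below 0 (blue) for 26 of 35 genes in complex I, 6 of 9 in complex III, 9 of 12 in complex IV and 15 of 17 in the ATP synthase, and the columns of ethanol-treated KO cells are paler.

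Among complex I genes, the accessory subunit Ndufc1 read 2337 and 2437 in untreated WT and 1251 and 1158 in untreated KO. Its log2 difference was -0.98 ± 0.0718 (SE, 2 arrays per group, limma adjusted p = 1.7e-05). Ndufb7, an accessory subunit of the membrane arm, read 2669 and 2597 in WT and 1255 and 1424 in KO, a difference of -0.97 ± 0.0780 (adjusted p = 2.9e-05). For both genes the untreated KO arrays stood at about the same level and far from WT, so the gap was many times the spread within groups.

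The catalytic core of complex I was described as 6 genes, a split made after the values had been seen. Of these, 5 were lower in untreated KO. Ndufv1, which holds the flavin that accepts electrons from NADH, read 2756 and 2878 in WT and 1801 and 1761 in KO (-0.66 ± 0.0660, limma adjusted p = 1.0e-04). Ndufs7 and Ndufs8, iron-sulfur subunits near the ubiquinone site, differed by -0.66 and -0.65. Their arrays scattered more, and Ndufs8 read 4541 and 3230 on the A and B arrays of untreated WT. Ndufs3 and Ndufv2 differed by -0.38 and -0.36. The exception was Ndufs1, the largest iron-sulfur subunit, at 797 and 815 in WT and 933 and 932 in KO, a difference of 0.21 with an adjusted p of 0.09. Outside the core, 14 of 29 tested genes were lower, from Ndufc1 at -0.98 to Ndufb11 at -0.20.

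Both complex I names that rose in untreated KO were small subunits. Ndufa7 read 2917 and 2696 in WT and 3619 and 3563 in KO, a difference of 0.35 ± 0.0683 (limma adjusted p = 0.0036), but its second brightest probe set differed by 0.14 (adjusted p = 0.31). Its dimmer probe sets differed by 0.51 (adjusted p = 0.0017), 0.27 (adjusted p = 0.055) and 0.26 (adjusted p = 0.095), and only the first of these was called. Ndufa4l2 is a paralogue of Ndufa4 known to be induced through hypoxia-inducible factor. It read 340 and 413 in WT and 510 and 499 in KO, a difference of 0.41 ± 0.135 (adjusted p = 0.041), and this call was lost under trimmed-mean scaling, which sets each array to a common trimmed mean in place of quantile normalisation (adjusted p = 0.066). Ndufa4 itself, now generally placed with complex IV, differed by -0.14 and did not pass the test (adjusted p = 0.28).

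Complex III was split between its paired core proteins. Uqcrc1 read 3339 and 3468 in WT and 2327 and 2335 in untreated KO, a difference of -0.54 ± 0.0634 (limma adjusted p = 2.3e-04). Uqcrc2 went the other way, with 2529 and 2540 in WT and 3772 and 3694 in KO (0.56 ± 0.0717, adjusted p = 4.1e-04). For each gene the arrays of a group were within a few percent of each other and the groups did not overlap. A second Uqcrc2 probe set was also higher, by 0.36 (adjusted p = 0.025). Of the electron-carrying subunits, Cyc1, the cytochrome c1, differed by -0.53 (adjusted p = 0.0011). Uqcrfs1, the Rieske iron-sulfur protein, differed by -0.46 (adjusted p = 0.025), with KO arrays at 2037 and 2728, and lost this call under trimmed-mean scaling (adjusted p = 0.058). Uqcrq, a small subunit, differed by -0.38 (-0.21 and not called under trimmed-mean scaling), and Uqcrb, Uqcr10, Uqcr11 and Uqcrh did not pass the test.

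In complex IV, the lower members were Cox8a, Cox5b, Cox5a, Cox6b1 and Cox4i1, all nuclear subunits around the catalytic core. Cox8a read 2985 and 3090 in WT and 2108 and 2225 in untreated KO, a difference of -0.48 ± 0.0901 (limma adjusted p = 0.003). Cox5b and Cox5a differed by -0.33 and -0.32, Cox6b1 by -0.20 and Cox4i1 by -0.17 (adjusted p = 0.045). Only Cox8a among these passed under trimmed-mean scaling, where Cox5b and Cox5a shrank to -0.03 and -0.05 and Cox6b1 and Cox4i1 turned to 0.22 each. After quantile normalisation, dimmer Cox5b probe sets differed by -0.44 (adjusted p = 0.0021), -0.48 (adjusted p = 0.0072), -0.23 and -0.17, the last 2 not called. Dimmer Cox5a probe sets differed by -0.41 (adjusted p = 0.005) and -0.26, the latter not called. Trimmed-mean values of these dimmer probe sets are not given here. The probe sets of Cox6a1 disagreed. Its brightest one read 8881 and 9206 in WT and 10631 and 10393 in KO (0.22 ± 0.0607, adjusted p = 0.022), and its second one read 5470 and 5319 in WT and 4245 and 4315 in KO (-0.33, adjusted p = 0.0055), so no direction is given for this gene.

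The heart and muscle isoforms of complex IV were near the floor of the arrays in every group. Cox6a2 read 21.0 to 86.9 and Cox7a1 read 32.7 to 67.5, and neither passed the test in any comparison. Cox8b read 7.60 to 33.3, and Cox4i2, the isoform known from lung, read 9.99 to 45.5. The isoforms known from testis, Cox6b2 and Cox7b2, read 3.50 to 30.9 and 0.432 to 10.5. These last 4 genes were below the filter and were not tested. The probe sets of Ndufb4 (0.512 to 24.2) and Cox7c (9.95 to 32.6), which are not such isoforms, were below it too. Whether those probe sets read the main transcripts of the 2 genes was not tested. Cox8c, the remaining testis isoform, read 108 to 238 with wide scatter between A and B arrays and did not pass the test in any comparison. The widely expressed partners Cox4i1, Cox6a1, Cox6b1, Cox7a2 and Cox8a all read above 2100 on every array.

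In the ATP synthase, 3 of 5 genes of the catalytic F1 head and 2 of the 12 others were lower in untreated KO, a split made after the values had been seen. Atp5d, the delta subunit, read 5053 and 4816 in WT and 2951 and 3256 in KO, a difference of -0.67 ± 0.165 (limma adjusted p = 0.012). Atp5c1, the gamma subunit of the rotating stalk, differed by -0.51 ± 0.0648 (adjusted p = 3.8e-04), and Atp5a1, the alpha subunit, by -0.28 (adjusted p = 0.019), a call lost under trimmed-mean scaling (-0.06, adjusted p = 0.7). Atp5b, the beta subunit that holds the catalytic sites, read 8135 and 8090 in WT and 7329 and 7260 in KO, a difference of -0.15 with an adjusted p of 0.086; under trimmed-mean scaling it turned to 0.26 and was called higher (adjusted p = 0.05). The membrane ring of the enzyme is built from subunit c, for which 3 genes encode the same mature protein. Of these, Atp5g1 read 3368 and 3573 in WT and 2183 and 2170 in KO (-0.67 ± 0.0738, adjusted p = 1.7e-04). Atp5g2 differed by -0.16 and Atp5g3 by 0.11, and neither passed the test, but under trimmed-mean scaling Atp5g3 differed by 0.67 and was called higher (adjusted p = 0.0034).

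**Figure D2:**
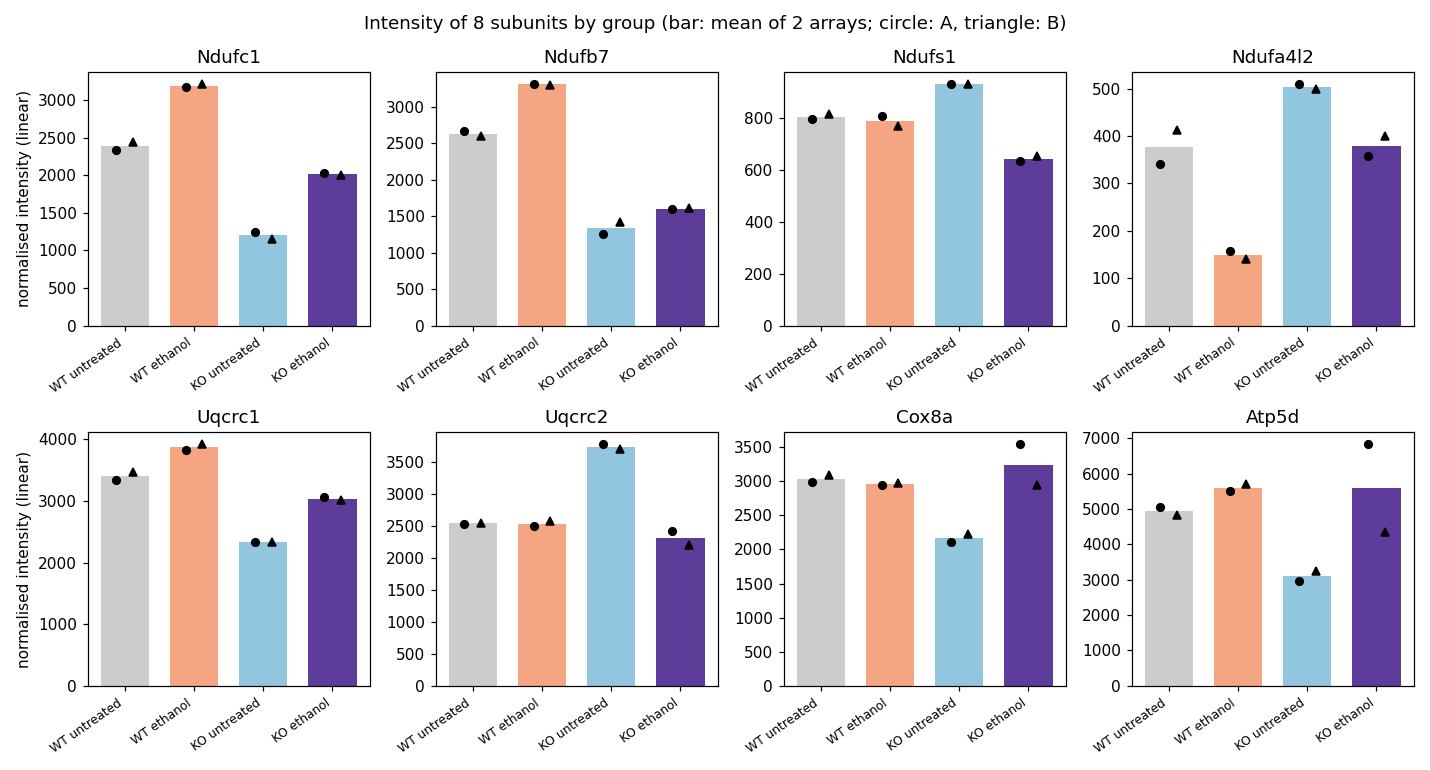
Bars give the mean normalised intensity of 2 arrays for 8 subunits in the 4 groups, with the A array as a circle and the B array as a triangle, on a linear axis from 0. Ndufc1 and Ndufb7 are lowest in untreated KO, Uqcrc2 is highest there, and the 2 arrays of ethanol-treated KO cells lie far apart for Atp5d.

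With ethanol, the KO cells again had lower subunit levels than the WT cells. This comparison shares no array with the untreated one, but both rest on the same normalisation and the same fit of all 8 arrays. In it, 27 of 77 members were lower and 3 higher, where 15.1% of all tested probe sets were lower and 14.0% higher. The members' median was -0.18 and that of all tested probe sets -0.05. Complex I held 17 of the 27 lower members (of 35 tested), the ATP synthase 5 of 17, complex IV 3 of 12, complex III 2 of 9 and complex II none of 4. Both KO arrays lay below both WT arrays for 42 of the 77 members and for 33.9% of all tested probe sets. In all, 16 members were lower in KO both without and with ethanol, 48.5% of the untreated list and 59.3% of the ethanol list. The share of all tested probe sets lower in both is not given here, so this overlap has no background to be judged against. The 16 members were 11 complex I genes (Ndufa2, Ndufa5, Ndufa12, Ndufb2, Ndufb7, Ndufb11, Ndufc1, Ndufs3, Ndufs5, Ndufv1 and Ndufv2) with Uqcrc1, Cox5a, Cox6b1, Atp5g1 and Atp5k.

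Ndufb7 had the lowest difference of the members, reading 3313 and 3300 in ethanol-treated WT and 1599 and 1609 in ethanol-treated KO (-1.04 ± 0.0780, limma adjusted p = 1.9e-05). Ndufa5, an accessory subunit of the matrix arm, read 2765 and 3124 in WT and 1616 and 1853 in KO (-0.76 ± 0.101, adjusted p = 5.7e-04). Ndufa2 also differed by -0.76, Ndufc1 by -0.65 and Ndufv1 by -0.42. In none of these did an array of one genotype reach the range of the other. Ndufs1, which was not lower in untreated KO, read 811 and 771 in WT and 634 and 656 in KO (-0.29, adjusted p = 0.029).

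In the other complexes the differences with ethanol were smaller. Uqcrc1 differed by -0.35 (limma adjusted p = 0.003) and Uqcrh, the hinge protein that contacts cytochrome c1, by -0.32 (adjusted p = 0.01), with its second probe set at -0.18 (adjusted p = 0.13). Cox5a differed by -0.42 (adjusted p = 0.0092), Cox6b1 by -0.26 and Cox7a2 by -0.22. Cox6b1 lost its call under trimmed-mean scaling (-0.20, adjusted p = 0.16) and on its second probe set (-0.06). So did Cox7a2, at -0.17 under that scaling (adjusted p = 0.31) and -0.10 on its second probe set (adjusted p = 0.32). In the ATP synthase, Atp5md and Atp5k, small membrane subunits, differed by -0.51 (adjusted p = 0.02) and -0.46, and Atp5e, the epsilon subunit, by -0.48 (adjusted p = 0.0022). Cyc1 (-0.22), Uqcrfs1 (0.15), Cox4i1 (0.00), Cox8a (0.13), Atp5a1 (0.01), Atp5b (0.09) and Atp5d (-0.04) did not pass the test on their brightest probe sets. The second brightest ones of Atp5a1 (-0.35, adjusted p = 0.0042) and Atp5d (-0.36, adjusted p = 0.034) were called lower, and that of Cox8a (0.20) was not called. Cyc1 was called lower under trimmed-mean scaling (-0.29, adjusted p = 0.037).

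The 3 higher members with ethanol were Ndufa4l2, Ndufa7 and Sdha. Ndufa4l2 read 157 and 140 in ethanol-treated WT and 358 and 400 in ethanol-treated KO, a difference of 1.26 ± 0.135 (limma adjusted p = 1.5e-04). Ndufa7 differed by 0.29 (adjusted p = 0.011). Sdha, the flavoprotein subunit of complex II that oxidises succinate, read 2808 and 2810 in WT and 3569 and 3189 in KO (0.26 ± 0.0729, adjusted p = 0.024), but its second probe set differed by -0.19 (adjusted p = 0.096). Sdhb, the iron-sulfur subunit, differed by 0.18 and did not pass (adjusted p = 0.083). Ndufa7 and Sdha lost their calls under trimmed-mean scaling, and the second brightest Ndufa7 probe set differed by 0.17 (adjusted p = 0.23). Dimmer Ndufa7 probe sets differed by 0.33 (adjusted p = 0.027), -0.08 and -0.01, and only the first of these was called.

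**Figure D3:**
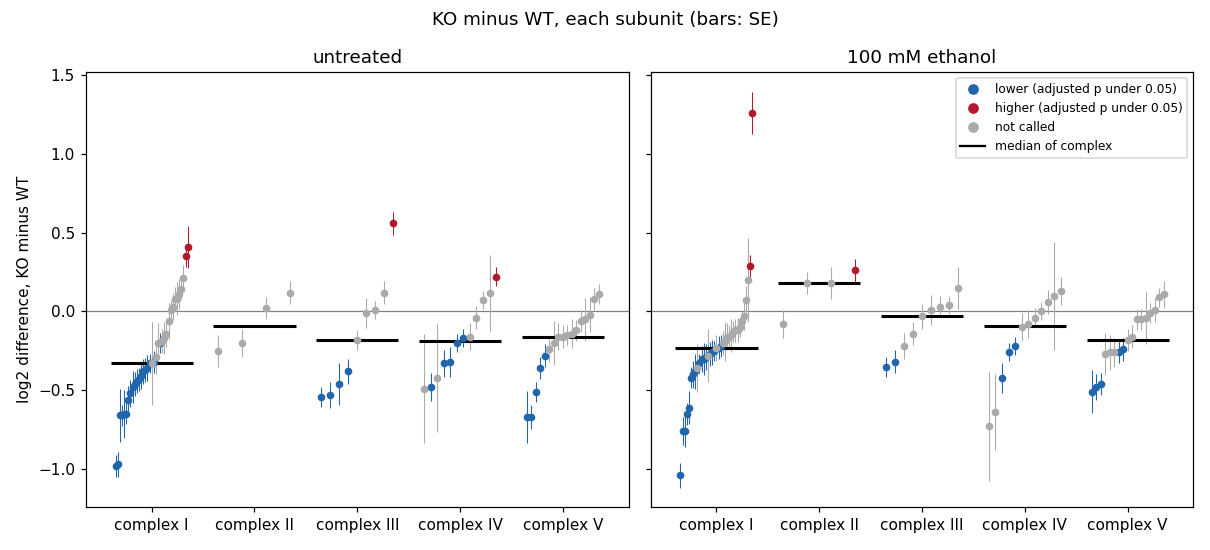
Each point is one subunit's log2 difference, KO minus WT, in untreated cells (left) and with 100 mM ethanol (right), by complex, with its standard error; blue and red mark members lower and higher at an adjusted p under 0.05, and the line is the complex's median. Complex I has medians of -0.33 and -0.23, and Ndufa4l2 is the highest point with ethanol, at 1.26.

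Under scaling of each array to a common 2% trimmed mean, a choice that keeps the differing shapes of the intensity distributions, the direction of the genotype difference held in complex I but not in every complex. Untreated KO cells then had 22 members lower and 9 higher than WT, all 22 among the 33 above, where 17.3% of all tested probe sets were lower and 16.7% higher. The members' median was then -0.10 beside -0.04 over all, so the members' median relative to all shrank from -0.16 to -0.06. Complex I kept 16 lower members and a median of -0.32, whereas the median of complex IV became 0.03, with 1 lower and 2 higher. With ethanol, 27 members were lower and 1 higher under that scaling, with 24 of the 27 lower members in both lists, where 13.8% of all tested probe sets were lower and 15.7% higher. The median of all tested probe sets moved from -0.05 to 0.06 in the ethanol comparison, and the members' median relative to it moved from -0.13 to -0.29. Some of the brightest subunits differed most between scalings: Uqcrb, at 12797 to 13937 on all arrays after quantile normalisation, differed by 0.01 between the untreated genotypes, and by 0.77 under trimmed-mean scaling (limma adjusted p = 0.0039).

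**Figure D4:**
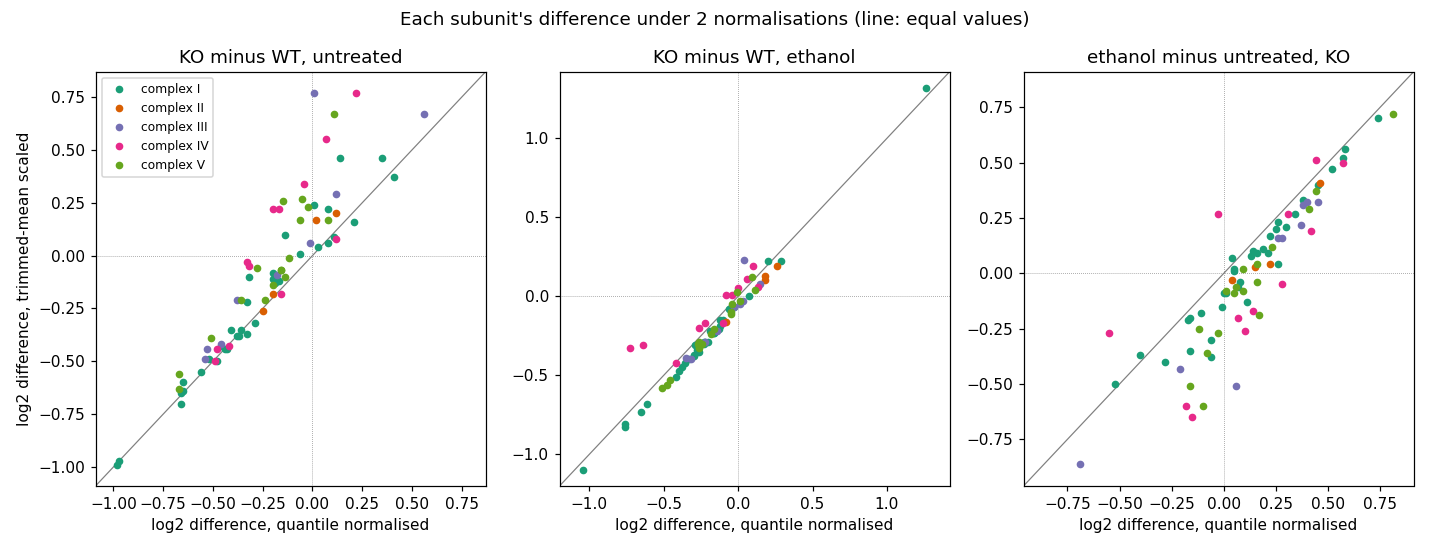
Each point is one subunit's log2 difference after quantile normalisation (horizontal) and after trimmed-mean scaling (vertical), coloured by complex; the line marks equal values. Most complex I genes lower in untreated KO stay near the line. Several bright subunits of complexes III, IV and V, and Ndufa1 and Ndufb9 of complex I, lie above it in the left panel and below it in the right one.

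When single arrays were left out, the number of members called in untreated KO, in both directions, was 24 to 49 against 37, and it was lowest without the A array of untreated KO. Each of these fits called 18 of the 33 lower members, and 17 of the 18 were also called under trimmed-mean scaling: 12 complex I genes with Cyc1, Uqcrc1, Cox8a, Atp5c1 and Atp5g1. Without either array of ethanol-treated WT, the calls with ethanol numbered 13 (A) and 15 (B) against 30. Among arrays with a spike-in ratio over 2, the members' median was -0.24 in untreated cells, and with ethanol it was -0.13 under and -0.19 over that ratio. Signs of the 33 and 27 lower members could not change there, as each had both KO arrays below both WT arrays. Other probe sets of the same genes bear on the calls too: of 42 that belong to members called in untreated KO, 25 had the same call, 16 had none and 1, of Cox6a1, had the opposite call.

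Ethanol moved few subunits in WT cells. Of 77 members, 5 were higher and 1 lower at an adjusted p under 0.05, where 1.67% of all tested probe sets were higher and 3.91% lower, and the members' median of 0.08 stood beside 0.01 over all. The higher members were Ndufc1, Ndufa5, Ndufa2 and Ndufb7 of complex I and Atp5e of the ATP synthase. Ndufc1 read 2337 and 2437 without and 3169 and 3216 with ethanol (0.42 ± 0.0718, limma adjusted p = 0.011). Ndufa5 differed by 0.42 (adjusted p = 0.044), Ndufb7 by 0.33 (adjusted p = 0.041) and Atp5e by 0.34 (adjusted p = 0.046). The second probe sets of Ndufc1 and Ndufa5 each differed by 0.19 and were not called, and trimmed-mean scaling kept only the Ndufc1 call among the 5. The members' median was 0.09 and 0.10 among arrays with a spike-in ratio under and over 2. None of the 5 was called in every fit that left out one array. The number of calls was 1 without any one WT array, 2 without either untreated KO array and 19 without either ethanol-treated KO array, against 6 with all arrays.

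The lower member, Ndufa4l2, had the largest response to ethanol in WT. It read 340 and 413 without ethanol and 157 and 140 with it, a difference of -1.25 ± 0.135 (limma adjusted p = 0.0012). This call was kept in every fit that left out one array and under trimmed-mean scaling (-1.32). When both ethanol B arrays were counted as untreated, as their treatment text reads, no member was called with ethanol in WT and the Ndufa4l2 difference had an adjusted p of 1. In KO cells the same gene read 510 and 499 without and 358 and 400 with ethanol, a difference of -0.40 that did not pass the test (adjusted p = 0.06).

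In KO cells, ethanol changed more subunits, mostly upward after quantile normalisation. Of 77 members, 24 were higher and 3 lower, where 11.4% of all tested probe sets were higher and 10.8% lower. The members' median was 0.13, beside -0.01 over all tested probe sets, and 0.12 among arrays with a spike-in ratio over 2. By complex, the higher members were 11 of 35 in complex I, 2 of 4 in complex II, 4 of 9 in complex III, 4 of 12 in complex IV and 3 of 17 in the ATP synthase. Under trimmed-mean scaling the split was 13 higher and 13 lower, where 12.2% of all tested probe sets were higher and 11.5% lower, the median was 0.02 beside 0.08 over all, and so no direction over the members held under both scalings. All 13 members higher under that scaling were among the 24, and the 3 lower members were lower there too. When both ethanol B arrays were counted as untreated, as their treatment text reads, most of the calls with ethanol in KO were lost.

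**Figure D5:**
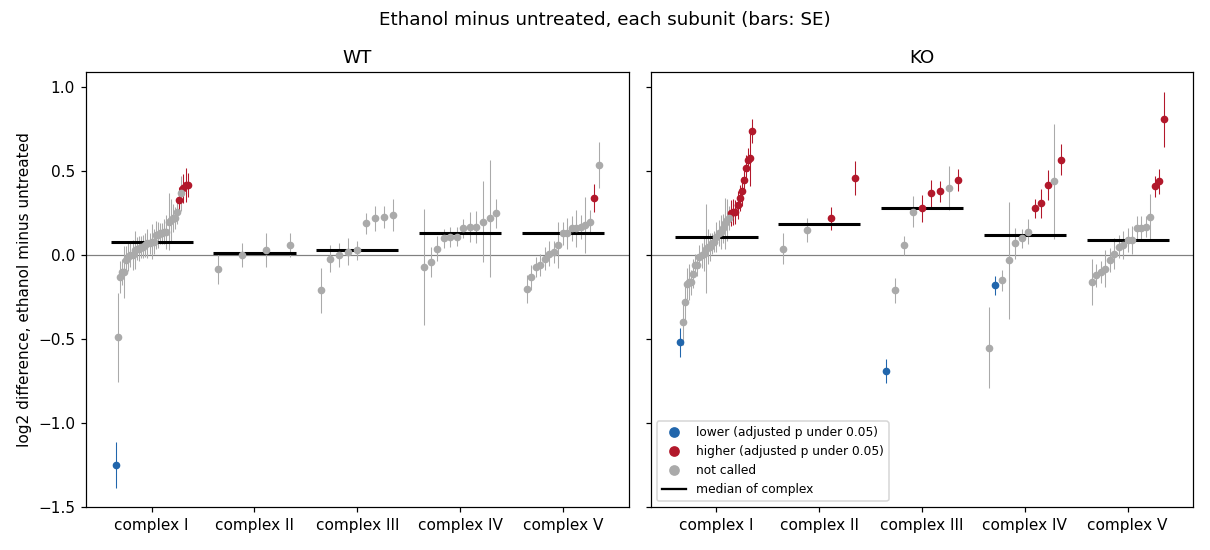
Each point is one subunit's log2 difference, ethanol minus untreated, in WT (left) and KO (right) cells, by complex, with its standard error; colours and lines are as in the plot of genotype differences. In WT the lowest point is Ndufa4l2 at -1.25, and in KO the points run from Uqcrc2 at -0.69 to Atp5d at 0.81; under trimmed-mean scaling the KO members split into 13 higher and 13 lower.

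Ndufc1 rose in KO from 1251 and 1158 to 2037 and 2009 (0.74 ± 0.0718, limma adjusted p = 3.9e-04), and it and Ndufb7 (0.26, adjusted p = 0.041) were the only members called higher with ethanol in both genotypes. Under trimmed-mean scaling Ndufb7 lost both calls. Ndufb8 rose from 1793 and 1778 to 2657 and 2650, close to the 2797 and 2841 of untreated WT. Ndufs7 differed by 0.58 (adjusted p = 0.037), with ethanol arrays at 1661 and 1131, but its second probe set differed by 0.13 (adjusted p = 0.35). In complex II, Sdhd, a membrane anchor, differed by 0.46 (adjusted p = 0.013), with its second probe set at 0.24 (adjusted p = 0.4). Sdhb differed by 0.22 (adjusted p = 0.049), a call lost in 15 of 19 alternatives, with 0.04 under trimmed-mean scaling (adjusted p = 0.77).

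In complex III, Uqcr11 and Uqcrc1 rose in ethanol-treated KO by 0.45 and 0.38 (limma adjusted p = 0.002 and 0.0036). In complex IV, Cox8a rose from 2108 and 2225 to 3545 and 2943 (0.57 ± 0.0901, adjusted p = 0.0027), and Cox5b by 0.42, a call that trimmed-mean scaling did not keep (adjusted p = 0.37). In the ATP synthase, Atp5g1 rose by 0.44 (adjusted p = 0.0037) and Atp5c1 by 0.41 (adjusted p = 0.0029). Atp5d had the largest difference of the members, 0.81 ± 0.165 (adjusted p = 0.0084), but its ethanol arrays read 6830 and 4350, with only the A array above all WT arrays, and its second probe set differed by 0.27 and was not called (adjusted p = 0.1).

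The members that fell with ethanol in KO were Uqcrc2, Ndufs1 and Cox7a2. Uqcrc2 went from 3772 and 3694 to 2418 and 2193, a difference of -0.69 ± 0.0717 (limma adjusted p = 5.3e-04), and its second probe set by -0.42 (adjusted p = 0.018). Ndufs1 went from 933 and 932 to 634 and 656 (-0.52 ± 0.0838, adjusted p = 0.003). Cox7a2 differed by -0.18 (adjusted p = 0.046), and by -0.60 under trimmed-mean scaling (adjusted p = 0.0061). The calls in KO with ethanol numbered 11 and 13 without the A and B array of untreated KO, against 27. In each fit that left out one array, 9 of the 24 higher members (Ndufa6, Ndufb8, Ndufc1, Ndufv1, Uqcr11, Uqcrc1, Cox8a, Atp5c1 and Atp5g1) and 2 of the 3 lower (Ndufs1 and Uqcrc2) were called.

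The difference between the ethanol effects, that in KO minus that in WT, was tested as an interaction. Here 5 members were higher and 3 lower, where 3.57% of all tested probe sets were higher and 1.78% lower. The higher ones were Ndufa4l2 (0.85 ± 0.191, limma adjusted p = 0.035), Cox8a (0.61), Ndufb8 (0.52, adjusted p = 0.015), Atp5c1 (0.46) and Atp5g1 (0.43). The lower ones were Uqcrc2 (-0.69 ± 0.101, adjusted p = 0.0072), Ndufs1 (-0.49, adjusted p = 0.045) and Uqcrh (-0.43). The second probe set of Uqcrh gave -0.06 (adjusted p = 0.82) and that of Uqcrc2 -0.57 (adjusted p = 0.057). Trimmed-mean scaling gave 1 higher and 6 lower, where 4.10% of all tested probe sets were higher and 2.54% lower, and called Ndufa4l2, Uqcrc2 and Uqcrh again. No single member was called in all fits that left out one array: there were 0 calls without the A array of untreated KO, 1 without its B array or any one WT array, 11 without the A and 32 without the B array of ethanol-treated KO.

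Across the 5 comparisons, 53 members were called at least once and 24 never, where 49.0% of all tested probe sets were called at least once. Of the 24, trimmed-mean scaling called 8 at least once: Atp5b, Atp5g3, Atp5h, Atp5o, Atp5pb, Ndufa1, Ndufa3 and Uqcrb. The second probe set of Cox6c, another of the 24, was called lower with ethanol in KO (-0.68), in KO against WT with ethanol (-0.50), and for the interaction (-0.85). That of Atp5o was called lower in KO against WT with ethanol (-0.99, limma adjusted p = 0.0037). Other probe sets of the remaining genes among the 24 are not listed here. Ndufa9, Ndufs4 and Sdhc, a membrane anchor of complex II at 1999 to 2480 on all 8 arrays, had no call from their brightest probe sets under either scaling.

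Genes that serve the chain were counted from lists chosen with earlier results of these data known. Of 76 mitochondrial ribosomal protein genes, which translate the subunits encoded in mitochondrial DNA, 40 were lower and 2 higher in untreated KO, and 34 lower and 1 higher with ethanol. These lower counts are 52.6% and 44.7% of the list, beside 16.9% and 15.1% of all tested probe sets, and the medians were -0.34 and -0.31. Mrpl12 had the smallest adjusted p in both, at 2294 and 2311 in untreated WT and 1178 and 1186 in untreated KO (-0.95, limma adjusted p = 1.6e-05). Assembly factors of complexes II to V, 29 genes, had 11 lower (37.9%) and 1 higher untreated and 10 lower (34.5%) and 4 higher with ethanol, the last being 13.8% beside 14.0% of all tested probe sets. Coa3, which acts in complex IV assembly, differed by -0.85 and -0.73, while Tmem70, an assembly factor for the ATP synthase, was higher in untreated KO (0.86, adjusted p = 3.0e-04).

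Complex I assembly factors, 15 genes, had 4 lower (26.7%) and 1 higher in untreated KO and 7 lower (46.7%) and 1 higher with ethanol. The higher gene in both was Timmdc1, a membrane assembly factor, at 121 to 156 on the WT arrays and 383 to 482 on the KO arrays (1.50 and 1.66, limma adjusted p = 1.1e-04 and 6.6e-05). Among 22 genes for electron carriers, ubiquinone synthesis and inner membrane transport, 9 were lower (40.9%) and 1 higher untreated, and 11 lower (50.0%) and 0 higher with ethanol. Slc25a4, an ADP/ATP carrier, read 319 to 341 in WT and 63.9 to 135 in KO (-1.95 and -1.43), and Etfb, which passes electrons from fatty acid oxidation towards ubiquinone, differed by -0.65 and -0.79. Of 13 tricarboxylic acid cycle enzymes, 7 were lower (53.8%) and 2 higher untreated, and 5 lower (38.5%) and 1 higher with ethanol.

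Of 18 tested regulators of respiratory gene transcription, 4 were higher (22.2%) and 3 lower (16.7%) in untreated KO, and 2 were higher (11.1%) and 1 lower (5.56%) with ethanol. The untreated shares lie near those of all tested probe sets, 15.3% higher and 16.9% lower, and those with ethanol lie below 14.0% and 15.1%. Gabpa, the DNA-binding subunit of GABP, read 344 and 356 in untreated WT and 746 and 757 in untreated KO (1.07 ± 0.161, limma adjusted p = 9.8e-04), and 341 and 500 in ethanol-treated KO. Pprc1, a coactivator related to PGC-1, was lower in untreated KO (-0.57, adjusted p = 0.0028). Nrf1 was higher in KO with ethanol (0.80, adjusted p = 0.0082), and Esrra, the estrogen-related receptor alpha, lower (-0.62, adjusted p = 0.019). One subunit encoded in mitochondrial DNA was measured, ND5 of complex I. It read 13253 and 13021 in untreated WT, 7374 and 8670 in ethanol-treated WT (-0.72, adjusted p = 0.0089), and 13677 to 18006 in KO, where 3 of the 4 arrays sit at the top value that quantile normalisation allows, so its KO levels are bounded by the scale.

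Promoters were compared because many of these nuclear genes fell together in untreated KO. RefSeq (GRCm38.p6) held entries for 67 of the 83 genes, with 72 promoters, and 250 bases before each transcription start were searched on both strands for 4 motifs, beside 32851 promoters of all genes. The NRF-1 core GCGCANGC was present in 23.6% of member promoters and 8.3% of all promoters, and the GABP-type ETS motif CCGGAAG in 16.7% and 6.91%. The Sp1 motif GGGCGG was present in 36.1% and 32.7%, and the CCAAT box in 40.3% and 33.8%. Within the chain, the NRF-1 core was in 23.3% of the 30 promoters of members lower in untreated KO and in 24.3% of the 37 promoters of the other tested members, and CCGGAAG in 10% and 24.3%. Both percentages count letters in a window and are no evidence of binding, and the difference between these groups was not tested.

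The windows of 3 of the largest falls and of the 3 lower members with the largest fall among those holding the NRF-1 core show this variety. Each is the 250 bases before the start, 5′ to 3′ on the gene's strand, with the motifs named above in capitals. The capitals mark CCGGAAG in Ndufb7, 5 CCAAT boxes in Atp5g1 of which a pair overlaps on opposite strands, and the NRF-1 core in Atp5c1, Ndufa5 and Ndufs5, with a CCAAT box in Atp5c1 and an Sp1 motif in Ndufa5. The Ndufc1 window, of the gene with the largest fall, holds none of the 4. Windows are chr3:51408956-51409205 (minus strand) for Ndufc1, chr8:83566508-83566757 (plus) for Ndufb7 and chr11:96075632-96075881 (minus) for Atp5g1. Those with the NRF-1 core are chr2:10080433-10080682 (minus) for Atp5c1, chr6:24527527-24527776 (minus) for Ndufa5 and chr4:123718187-123718436 (minus) for Ndufs5.
Ndufc1: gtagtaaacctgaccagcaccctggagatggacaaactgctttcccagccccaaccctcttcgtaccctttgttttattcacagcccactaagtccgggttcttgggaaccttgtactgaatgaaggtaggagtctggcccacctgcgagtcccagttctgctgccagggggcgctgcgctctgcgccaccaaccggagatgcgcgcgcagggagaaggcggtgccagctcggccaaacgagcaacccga
Ndufb7: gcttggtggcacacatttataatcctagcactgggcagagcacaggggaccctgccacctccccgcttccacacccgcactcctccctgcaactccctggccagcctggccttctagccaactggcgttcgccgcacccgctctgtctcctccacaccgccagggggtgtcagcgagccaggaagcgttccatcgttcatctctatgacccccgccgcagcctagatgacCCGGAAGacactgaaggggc
Atp5g1: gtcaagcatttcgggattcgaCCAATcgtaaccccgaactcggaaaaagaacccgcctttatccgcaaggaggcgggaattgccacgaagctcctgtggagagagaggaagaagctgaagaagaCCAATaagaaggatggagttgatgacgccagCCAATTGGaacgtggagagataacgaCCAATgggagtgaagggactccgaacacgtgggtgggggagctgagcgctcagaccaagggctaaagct
Atp5c1: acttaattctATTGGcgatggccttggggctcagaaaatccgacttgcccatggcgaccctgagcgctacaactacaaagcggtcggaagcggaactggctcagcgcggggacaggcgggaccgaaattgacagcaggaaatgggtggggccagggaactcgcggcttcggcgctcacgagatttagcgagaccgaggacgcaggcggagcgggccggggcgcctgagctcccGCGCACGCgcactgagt
Ndufa5: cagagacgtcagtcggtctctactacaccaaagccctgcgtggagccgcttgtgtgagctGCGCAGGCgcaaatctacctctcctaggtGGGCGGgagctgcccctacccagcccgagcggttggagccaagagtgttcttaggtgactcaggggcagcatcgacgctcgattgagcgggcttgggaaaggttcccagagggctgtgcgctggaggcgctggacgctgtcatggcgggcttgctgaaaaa
Ndufs5: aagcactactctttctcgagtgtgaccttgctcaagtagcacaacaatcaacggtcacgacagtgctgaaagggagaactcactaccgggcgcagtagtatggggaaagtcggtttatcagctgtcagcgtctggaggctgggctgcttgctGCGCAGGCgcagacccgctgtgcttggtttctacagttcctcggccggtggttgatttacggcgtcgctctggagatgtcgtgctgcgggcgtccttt
In the windows shown, the NRF-1 core begins 17 bases before the start in Atp5c1, 190 in Ndufa5 and 98 in Ndufs5, and CCGGAAG begins 20 bases before it in Ndufb7. Atp5c1 and Ndufa5 each had another window, not shown. That of Atp5c1 lacks the NRF-1 core. That of Ndufa5 overlaps the window shown and lacks the Sp1 motif. It holds the same copy of the NRF-1 core, 26 bases before its own start, so the percentages above count this copy in both windows. These genes differed in untreated KO by -0.51 (Atp5c1), -0.48 (Ndufa5), -0.43 (Ndufs5) and -0.97 (Ndufb7), so lower members were found with and without either motif.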

How the data were processed

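Per the labels' protocols, RNA was purified on RNeasy columns and copied into biotin-labelled cRNA. Each of the 8 samples was read on a 1-colour Affymetrix array. The deposited file holds 1 linear intensity for each probe set on each array. Its software, scaling and genome build were not given in the sources used here. The B array of WT cells with ethanol had 5410 unusable values (12.0%), of which 5403 were 0; without their probe sets, 39627 remained.

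Intensities were quantile normalised and taken as log2(intensity + 16), which understates differences of dim genes. The brighter 50% of probe sets by mean, 19814, were tested with limma 3.58.1 (R 4.3.3): 4 group means on 8 arrays, an intensity trend in the variance prior, 4 residual and 5.43 prior degrees of freedom, and Benjamini-Hochberg adjustment per comparison, called at 0.05. The test was tried on simulated data. Gene symbols came from the platform annotation: 932 probe sets with several symbols and 9211 with none were not used. The number of arrays limits the precision.

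Named members were up to 2 highest and 2 lowest called members per comparison and complex, core subunits, isoforms, and genes whose probe sets disagreed; from each list, up to 4 called genes with the smallest adjusted p. Other genes named beside them were chosen after their values were seen. Members and lists were chosen with earlier results of these data known. Alternatives changed the scaling, offset, filter, variance trend, probe set, treatment of unusable values, spike-in class and ethanol B arrays, added the replicate letter as a block, or left out 1 array. Figures were drawn with matplotlib 3.10.9.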

Additional observations from a re-analysis of the deposited data

Results flagged for a closer look

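Limma's interaction test (KO effect minus WT effect, 2 arrays per group) called 8 subunits, 5 higher and 3 lower. Among all tested probe sets, 3.57% were higher and 1.78% lower. Of the 8, trimmed-mean scaling called only Ndufa4l2, Uqcrc2 and Uqcrh again. None of the 8 kept its call when both ethanol B arrays were counted as untreated, and the dependence on single arrays is described above. Ndufa4l2 fell by 1.25 on the log2 scale in WT and differed by -0.40 in KO, a gap of 0.85 (adjusted p = 0.035). Cox8a (-0.04 in WT, 0.57 in KO, gap 0.61, adjusted p = 0.027) and Ndufb8 (0.04 and 0.57, gap 0.52, adjusted p = 0.015) responded more in KO. So did the ATP synthase genes Atp5c1 (-0.06 and 0.41, gap 0.46, adjusted p = 0.022) and Atp5g1 (0.01 and 0.44, gap 0.43, adjusted p = 0.046). In the other direction were Uqcrc2 (0.00 and -0.69, gap -0.69, adjusted p = 0.0072), Ndufs1 (-0.03 and -0.52, gap -0.49, adjusted p = 0.045) and Uqcrh (0.22 and -0.21, gap -0.43, adjusted p = 0.043). The second brightest probe set of Uqcrh gave -0.06 (adjusted p = 0.82) and that of Uqcrc2 was not called, while that of Cox8a gave 0.76 (adjusted p = 0.0076).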

How the results depend on the processing

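Of 48 named differences, the alternatives gave 940 values: 708 kept direction and call, 230 kept the direction only, and 2 reversed, both on the second brightest probe set (Cox6a1 in untreated KO, -0.33, and Sdha in KO with ethanol, -0.19). Over all called members, trimmed-mean scaling also turned Cox4i1 and Cox6b1 in untreated KO (0.22 each) and Cox4i1 with ethanol in KO (from 0.28 to -0.05), which were not among the 48. Counts of called members that moved by over 1.5 times are as follows. For ethanol in WT (6), trimmed-mean scaling gave 2, no filter 2, no intensity trend 1, the second brightest probe set 3, and ethanol B arrays counted as untreated 0. For ethanol in KO (27), no trend gave 12, the second probe set 14 and B arrays as untreated 2. For untreated KO against WT (37), no trend gave 22 and the second probe set 18, of the 43 genes that have one tested. For KO against WT with ethanol (30), no trend gave 11 and B arrays as untreated 5. For the interaction (8), no filter gave 3, no trend 0, the second probe set 3, the spike-in class as a term 5, B arrays left out 24 and B arrays as untreated 0. Leaving out 1 array gave 1 to 19, 11 to 38, 24 to 49, 13 to 39 and 0 to 32 in the same order; the lone array left was assumed to vary like the other groups. With the replicate letter as a block, the counts were 7, 25, 37, 30 and 6; the deviations of same-letter arrays from their group means correlated at 0.02 to 0.30, over only 2 letters, so the letters were not taken as pairs. Apart from the alternatives' construction (fewer genes or arrays, other labels), the cause of these moves was not tested. With 2 arrays per group, small differences are the least certain, and members near the floor of the arrays were not measurable.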
